A study of Mus musculus with 6 samples.

Results

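The BCL2 family genes code for the proteins that set whether the outer membrane of the mitochondrion stays closed or is opened in apoptosis. The set described here holds 10 genes chosen by symbol, *Bcl2*, *Bcl2l1*, *Mcl1*, *Bax*, *Bak1*, *Bad*, *Bid*, *Bbc3*, *Pmaip1* and *Bcl2l11*, and all 10 were among the 14548 genes of the deposited tables and among the 10837 genes tested. They were compared between 3 WT and 3 MSTN-KO libraries made from C2C12, a mouse myoblast line whose cells can fuse into muscle fibres. The MSTN-KO libraries came from 1 line, C11, in which the third exon of *Mstn*, the gene of the muscle growth inhibitor myostatin, had been targeted with CRISPR/Cas9. No treatment or time point is given for either group. The strain label reads C11 for the WT libraries as well, so the groups were taken from the genotype. Because the MSTN-KO libraries are 1 line, the loss of MSTN and any other difference of that line cannot be told apart. Nothing in the labels says that the 3 libraries of a group came from separate cultures, so p-values measure the spread between these libraries, which may be technical.

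BCL2 family proteins fall into 3 classes. The anti-apoptotic members, here BCL2, BCL-XL (coded by *Bcl2l1*) and MCL1, hold the other classes in check. The effectors BAX and BAK (*Bak1*) form pores in the outer membrane, through which cytochrome c leaves the mitochondrion. The BH3-only members BAD, BID, PUMA (*Bbc3*), NOXA (*Pmaip1*) and BIM (*Bcl2l11*) start the process by binding the anti-apoptotic members or by switching on the effectors. NOXA binds MCL1 in particular, and BAD binds BCL2 and BCL-XL. In muscle, apoptosis of myoblasts accompanies the onset of differentiation in culture. RNA levels say nothing of the cleavage, phosphorylation or turnover by which many of these proteins are regulated.

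The promoters of the genes with the highest and the lowest level of the set are shown, since they differed most in level. Each is the RefSeq window from 250 bases before to 50 bases after the start of transcription on GRCm38.p6, on the minus strand, at chr7:45466849-45467148 for *Bax* and chr1:106714241-106714540 for *Bcl2*. Capitals mark the letters CACGTG (a form of the E-box, other forms of which were not searched) and GGGCGG (the GC box), searched on both strands together with CCAAT and TATAAA.
Bax: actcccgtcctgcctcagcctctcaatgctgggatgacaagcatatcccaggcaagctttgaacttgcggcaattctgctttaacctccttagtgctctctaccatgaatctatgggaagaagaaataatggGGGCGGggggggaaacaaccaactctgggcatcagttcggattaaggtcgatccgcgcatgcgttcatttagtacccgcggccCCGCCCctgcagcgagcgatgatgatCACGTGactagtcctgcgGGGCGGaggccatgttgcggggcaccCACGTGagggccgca
Bcl2: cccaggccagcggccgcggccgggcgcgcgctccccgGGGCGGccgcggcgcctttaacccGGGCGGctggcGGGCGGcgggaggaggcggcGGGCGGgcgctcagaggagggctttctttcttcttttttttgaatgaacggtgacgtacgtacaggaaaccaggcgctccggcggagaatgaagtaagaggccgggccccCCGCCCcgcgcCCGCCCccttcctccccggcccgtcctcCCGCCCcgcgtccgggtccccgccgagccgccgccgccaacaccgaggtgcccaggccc
The *Bax* window held 2 CACGTG and 3 GC-box matches, at a GC content of 57.3%. The *Bcl2* window held 7 GC-box matches and no CACGTG match, at a GC content of 76.0%. Neither window held CCAAT or TATAAA. Of 32851 windows of the same length, 7.15% held CACGTG, 35.7% held GGGCGG, 37.4% held CCAAT and 13.6% held TATAAA, and the median GC content was 52.7%. Among the 15 windows read for 9 of the members, CACGTG occurred in that of *Bax* and in 1 of the 3 windows of *Bbc3*. No window was read for *Pmaip1*, so its promoter was not searched. These matches are a description of letters, and binding was not measured.

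Expression was given in FPKM, the fragments on a gene divided by its exon length and by the size of its library, so that levels can be compared between genes per length. The 6 libraries had similar relative depths, from 0.866 to 1.1 of that of WT replicate 1 as read from the steps of low values, but the number of fragments is unknown. The FPKM values of all genes summed to between 723705 and 764524 in WT and to between 856314 and 999579 in MSTN-KO libraries. Scaling each library to a common sum therefore moved the median log2 fold change over all genes tested from 0.00 to -0.26, and results that depend on this scaling are named where they occur. *Mstn* itself lay between 0 and 0.0586 FPKM in all 6 libraries and could not check the labels (two-sided exact permutation test, p = 0.3, where 3 against 3 cannot give less than 0.1). The 6 myoblast markers in the tables summed to between 1261 and 1729 FPKM in WT and to between 730.4 and 907.4 FPKM in MSTN-KO libraries. Of these 6, *Des*, *Chrna1*, *Itga7* and *Myod1* fell, *Pax7* rose and *Myf5* did not pass. The summed endothelial and epithelial markers stayed under 0.5 FPKM, and the summed immune markers lay between 0.726 and 2.45 FPKM, with 3 of 5 immune markers not analysed here. The 4 fibroblast markers in the tables summed to between 11.5 and 15.4 FPKM in WT and to between 11.3 and 19.1 FPKM in MSTN-KO libraries, and of the 2 tested *Postn* fell and *Col1a1* did not pass. The 4 proliferation markers summed to between 248.7 and 322.6 FPKM in WT and to between 261.2 and 283.2 FPKM in MSTN-KO libraries, and 1 of them, *Ccnb1*, fell. The part of these markers in the results on the BCL2 family genes was not tested. The 7 muscle differentiation markers in the tables summed to 762.2, 735.5 and 203.5 FPKM in WT replicates 1, 2 and 3 and to 30.4, 44.0 and 50.6 FPKM in MSTN-KO replicates 1, 2 and 3, and all 7 fell in limma's test. WT replicate 3 thus stood apart from the other WT libraries in these genes.

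Of the 10 BCL2 family genes, 1 changed between WT and MSTN-KO cells, and it was the BH3-only gene *Pmaip1*, which was 3.58-fold lower in MSTN-KO. *Bax*, the member with the highest level, was 1.26-fold higher on average and higher in every MSTN-KO library than in any WT library, but missed the adjusted threshold. The other 8 members differed by at most 1.33-fold between the group means and did not pass the test. At an adjusted p under 0.05 in limma, 0 members rose and 1 fell, where 8.78% of the 10837 genes rose and 8.96% fell. At an unadjusted p under 0.05 in limma, 2 members (*Bax* and *Pmaip1*) passed, as did 3531 of the 10837 genes. By the criteria for differentially expressed genes (DEGs), an absolute log2 fold change over 1 with an unadjusted p under 0.05, 0 members were upregulated and 1 was downregulated, against 1.21% and 2.30% of all genes. The MSTN-KO libraries lay wholly above the WT libraries for 2 members (*Bax* and *Bcl2*) and wholly below them for 1 (*Pmaip1*), where 19.3% and 18.1% of all genes did so. The median log2 fold change of the 10 members was 0.03 against 0.00 for all genes, and the median absolute value was 0.13 against 0.23. In bulk RNA, fewer cells that express a gene and less of its RNA per cell cannot be told apart.

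**Figure D1:**
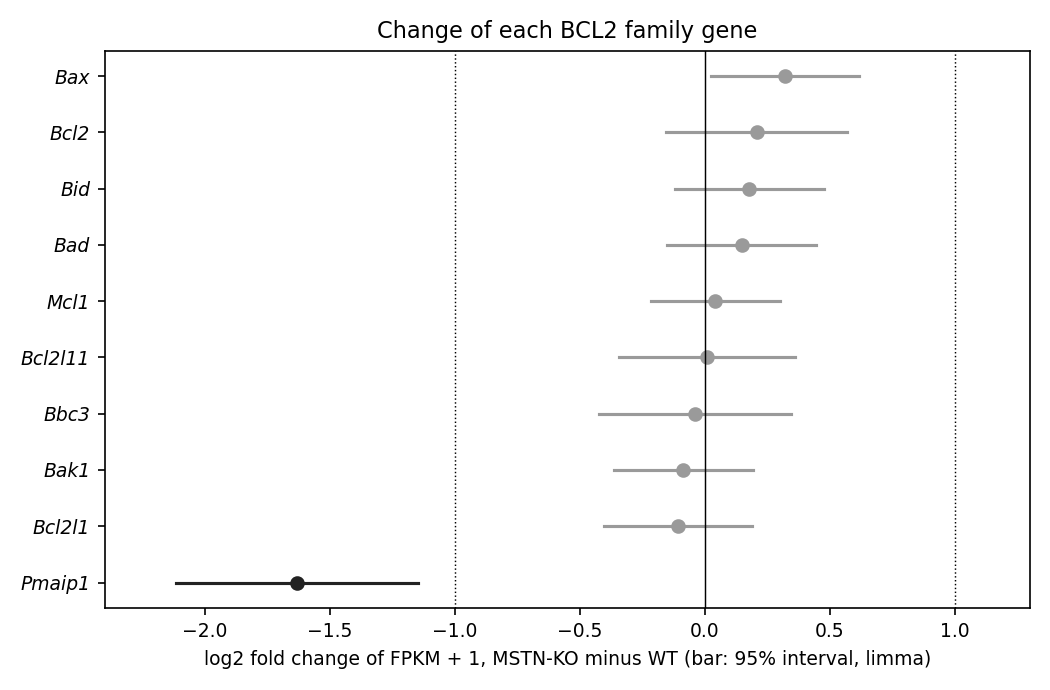
Log2 fold change of FPKM + 1 of each BCL2 family gene, MSTN-KO minus WT (points, with the 95% interval from limma as bars, n = 3 libraries per group). The dotted lines mark -1 and 1, the black point has an adjusted p under 0.05 and the grey points do not. *Pmaip1*, at -1.63, is the member whose interval lies wholly below -1, and *Bax*, at 0.32, has the highest value.

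The levels of the members spanned a wide range, with *Bax* at 380.0 ± 64.1 FPKM (SD over all 6 libraries) at the top and *Bcl2* at 1.06 ± 0.235 FPKM at the bottom. *Bad* (88.2 ± 10.8 FPKM) and *Bak1* (84.4 ± 8.04 FPKM) came next, and their ranges overlapped. *Mcl1*, at 48.9 ± 2.49 FPKM, was the highest of the anti-apoptotic members and separate from its neighbours in the order. *Bid* (35.4 ± 4.54 FPKM) and *Bcl2l1* (34.8 ± 3.79 FPKM) could not be ordered, since *Bid* was the higher in 4 of 6 libraries. *Bbc3* (11.7 ± 2.10 FPKM) overlapped in range with *Pmaip1* (7.27 ± 4.67 FPKM), and *Pmaip1* with *Bcl2l11* (5.16 ± 0.724 FPKM). *Bcl2* lay below all of them in every library. *Pmaip1* changed place with genotype, for it was above *Bcl2l11* in all 3 WT libraries and below it in all 3 MSTN-KO libraries.

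**Figure D2:**
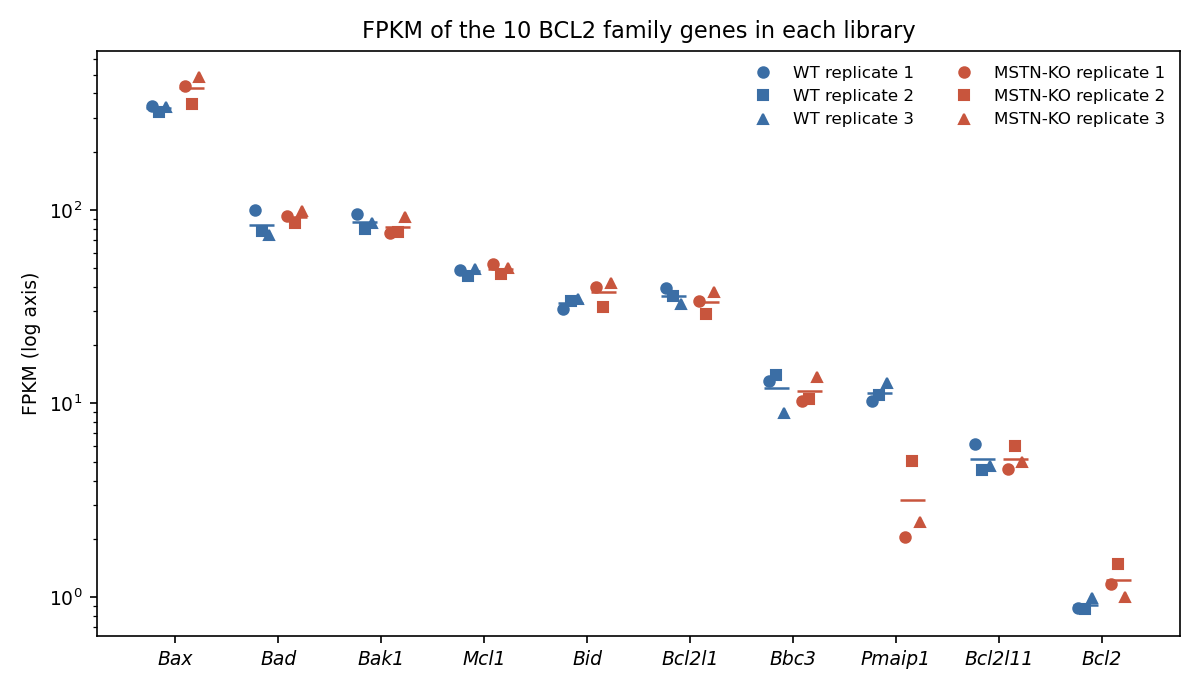
FPKM (log axis) of the 10 BCL2 family genes in each of 3 WT (blue) and 3 MSTN-KO (red) libraries, with the group means as lines and one symbol shape per replicate number. The genes are ordered by their mean over the 6 libraries, from *Bax* at 380.0 to *Bcl2* at 1.06 FPKM, and *Pmaip1* shows the widest gap between the groups.

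Among the anti-apoptotic members, *Mcl1* (ENSMUSG00000038612) had the steadiest level. It measured 49.2, 45.6 and 49.8 FPKM in WT replicates 1, 2 and 3 and 52.3, 46.5 and 50.1 FPKM in MSTN-KO. The groups overlapped, with a log2 fold change of 0.04 (95% interval -0.22 to 0.30, adjusted p = 0.837 by limma), whose sign turned under 3 other scalings. *Bcl2l1* (ENSMUSG00000007659), whose transcripts can code for the protective BCL-XL or for the short pro-apoptotic form BCL-XS, is given as 1 value per gene, so the forms were not separated. Its FPKM was 39.7, 35.8 and 32.8 in WT and 33.9, 29.0 and 37.7 in MSTN-KO libraries. The groups overlapped here as well, at a log2 fold change of -0.11 (-0.40 to 0.19, adjusted p = 0.623 by limma). With the libraries scaled to a common sum, *Bcl2l1* was at -0.39 (adjusted p = 0.0368 by limma). *Bcl2* (ENSMUSG00000057329), the founding member of the family, was barely expressed, at 0.873, 0.867 and 0.995 FPKM in WT and 1.17, 1.49 and 0.996 FPKM in MSTN-KO libraries. The MSTN-KO libraries were the higher ones, but MSTN-KO replicate 3 exceeded WT replicate 3 only in the third decimal. The log2 fold change of 0.21 (-0.15 to 0.57) did not pass (adjusted p = 0.413 by limma), and at so low a level the added 1 FPKM compresses it. The exons of *Bcl2* share 558 bases with a gene on the opposite strand, D630008O14Rik, whose reads cannot be told apart without strand.

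*Bax* (ENSMUSG00000003873; GRCm38 chr7:45461697-45466898) was the dominant RNA of the family, and its exons share 192 bases with Gm45808 on the same strand. It measured 345.8, 322.1 and 341.0 FPKM in the WT libraries and 434.5, 352.9 and 483.9 FPKM in the MSTN-KO libraries. Every MSTN-KO library was above every WT library, with MSTN-KO replicate 2 close to WT replicate 1. The means were 336.3 ± 12.5 and 423.8 ± 66.2 FPKM (SD, n = 3), so the spread was wider in MSTN-KO. The log2 fold change was 0.32 (SE 0.14, interval 0.02 to 0.62), with an unadjusted p of 0.036 and an adjusted p of 0.124 by limma. Without MSTN-KO replicate 2 it was 0.45 (adjusted p = 0.0255 by limma), and with the libraries scaled to a common sum it was 0.04. With a correction for length and GC content it was 0.20, and with quantile normalization 0.15. *Bak1* (ENSMUSG00000057789), the other effector, measured 95.5, 79.9 and 85.4 FPKM in WT and 76.4, 77.1 and 92.2 FPKM in MSTN-KO libraries. Its groups overlapped, at a log2 fold change of -0.09 (-0.36 to 0.19, adjusted p = 0.68 by limma), and scaling to a common sum gave -0.37 (adjusted p = 0.0206 by limma). Its exons share 177 and 437 bases with 2 annotated entries of *Ggnbp1* on the opposite strand.

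The BH3-only member *Pmaip1* (ENSMUSG00000024521; GRCm38 chr18:66458533-66465565) codes for NOXA, the partner of MCL1. Its level was 10.3, 11.1 and 12.7 FPKM in WT replicates 1, 2 and 3 and 2.04, 5.07 and 2.43 FPKM in MSTN-KO. The groups were far apart, and MSTN-KO replicate 2 lay nearest to WT. The means were 11.4 ± 1.26 and 3.18 ± 1.65 FPKM (SD, n = 3), and the log2 fold change of -1.63 (SE 0.22, interval -2.11 to -1.15) passed with an adjusted p of 0.000326 by limma. For this 1 gene alone the exact permutation test gave p = 0.1, the smallest that 3 libraries against 3 allow. *Pmaip1* passed under all 16 alternatives tried, with log2 fold changes from -1.93 to -1.43. Without WT replicate 3, the WT library with the lowest differentiation markers, the log2 fold change was -1.55 (adjusted p = 0.00123 by limma). The part of the lower differentiation markers of the MSTN-KO libraries in this result was not tested.

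The other 4 BH3-only members did not pass. *Bad* (ENSMUSG00000024959), which is silenced by phosphorylation and 14-3-3 proteins, measured 99.6, 78.0 and 74.0 FPKM in WT and 92.9, 85.3 and 99.1 FPKM in MSTN-KO libraries. *Bid* (ENSMUSG00000004446), which links death receptors to the mitochondrion once caspase-8 has cut it, measured 30.7, 33.9 and 34.5 FPKM in WT and 39.8, 31.5 and 42.0 FPKM in MSTN-KO libraries. In both genes the groups overlapped, and the log2 fold changes of 0.15 (-0.15 to 0.45) for *Bad* and 0.18 (-0.12 to 0.48) for *Bid* turned negative when the libraries were scaled to a common sum. Exons of *Bad* share 524 bases with *Gpr137*, and those of *Bid* share 628 bases with *Bcl2l13*, each on the opposite strand. *Bbc3* (ENSMUSG00000002083), the p53 target that codes for PUMA, measured 13.0, 14.1 and 8.89 FPKM in WT and 10.3, 10.6 and 13.7 FPKM in MSTN-KO libraries. *Bcl2l11* (ENSMUSG00000027381), a FoxO target that codes for BIM, measured 6.14, 4.54 and 4.77 FPKM in WT and 4.57, 6.01 and 4.96 FPKM in MSTN-KO libraries. Neither separated the groups. Their log2 fold changes were -0.04 (-0.42 to 0.35) for *Bbc3*, whose sign turned without single libraries, and 0.01 (-0.34 to 0.36) for *Bcl2l11*, whose sign turned under other scalings. The adjusted p of these 4 genes lay between 0.396 (*Bid*) and 0.974 (*Bcl2l11*) by limma.

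Ratios of members within a library do not change when all values of a library are divided by the same factor. They are given as a description without a test. They do depend on quantile normalization, under which they were not computed. Under it the log2 fold changes of *Bax*, *Bcl2l1* and *Mcl1* were 0.15, -0.16 and -0.019, against 0.32, -0.11 and 0.04 in the main fit. The ratios also depend on a correction for length and GC content. With that correction, the log2 difference between the groups moved from 0.43 to 0.37 for *Bax* over *Bcl2l1* and from 0.28 to 0.19 for *Bax* over *Mcl1*. For *Bax* over *Bcl2* it was -0.078 without the correction and -0.084 with it. The corrected values carry the added 1 FPKM and the others do not, so for *Bcl2*, near 1 FPKM, they cannot be compared. On the scale of FPKM + 1, the log2 fold changes of *Bax* and *Bcl2* were 0.32 and 0.21 without the correction. With it they were 0.20 and 0.29. The ratio of *Bax* to *Bcl2*, often used as a measure of the readiness for apoptosis, was 396.1, 371.4 and 342.7 in WT and 372.6, 237.0 and 486.0 in MSTN-KO libraries. These values overlapped and rested on a *Bcl2* level near 1 FPKM. The ratio of *Bax* to *Bcl2l1* was 8.72, 8.99 and 10.4 in WT and 12.8, 12.2 and 12.9 in MSTN-KO libraries, with no overlap. The ratio of *Bax* to *Mcl1* was 7.02, 7.07 and 6.85 in WT and 8.30, 7.59 and 9.65 in MSTN-KO libraries, again with no overlap. *Bax* was also higher against the other effector, for its ratio to *Bak1* was 3.62, 4.03 and 4.0 in WT and 5.69, 4.58 and 5.25 in MSTN-KO libraries. The ratios to *Bcl2l1*, *Mcl1* and *Bak1* share *Bax*, whose own change did not pass (adjusted p = 0.124 by limma), so they are not independent of each other. For scale, MSTN-KO libraries lay wholly above WT for 19.3% of all single genes and wholly below for 18.1%. The ratio of *Mcl1* to *Pmaip1*, guardian to antagonist, was 4.80, 4.10 and 3.91 in WT and 25.7, 9.18 and 20.6 in MSTN-KO libraries. It rested on the fall of *Pmaip1*, since *Mcl1* differed by 3.02% between the group means.

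**Figure D3:**
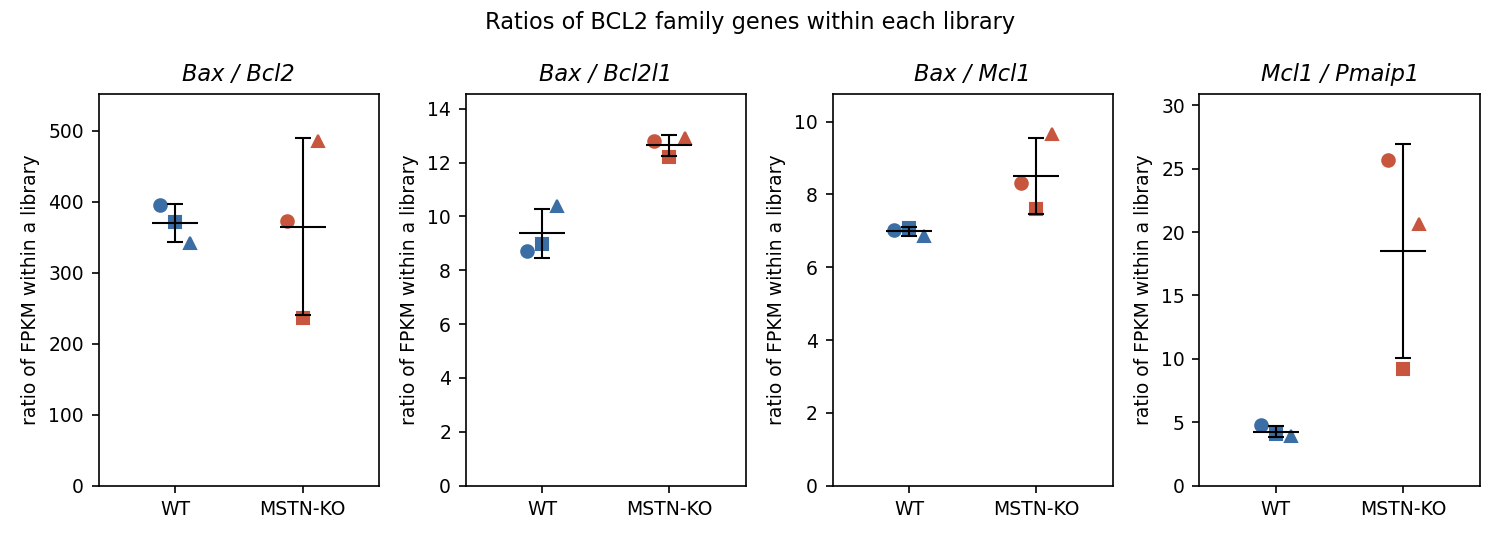
Ratios of FPKM between BCL2 family genes within each of 3 WT (blue) and 3 MSTN-KO (red) libraries, with the mean and SD as bars. Circles, squares and triangles are replicates 1, 2 and 3, the groups overlap for *Bax* over *Bcl2* and do not overlap in the other panels, and *Mcl1* over *Pmaip1* runs from 3.91 to 4.80 in WT and from 9.18 to 25.7 in MSTN-KO.

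The summed FPKM of the 10 members was 690.7, 625.9 and 644.8 in WT and 747.9, 645.3 and 827.0 in MSTN-KO libraries, which overlapped. *Bax* alone made up 50.1, 51.5 and 52.9% of that sum in WT and 58.1, 54.7 and 58.5% in MSTN-KO libraries. The share of the anti-apoptotic members was 13.0, 13.1 and 13.0% in WT and 11.7, 11.9 and 10.7% in MSTN-KO libraries. That share was lower in every MSTN-KO library, while the summed FPKM of the same 3 genes overlapped between the groups, at 82.3 to 89.8 in WT and 76.9 to 88.8 in MSTN-KO. The share is taken of a sum that holds *Bax*, whose own change did not pass (adjusted p = 0.124 by limma). It was not tested, and MSTN-KO libraries lay wholly below WT for 18.1% of all single genes. Within the sum of the 5 BH3-only members, *Bad* contributed 54.8 to 62.4% in WT and 61.1 to 62.1% in MSTN-KO libraries. *Pmaip1* contributed 6.42, 7.84 and 9.44% of it in WT and 1.36, 3.66 and 1.5% in MSTN-KO libraries. The summed FPKM of the BH3-only members overlapped between the groups, at 134.9 to 159.7 in WT and 138.4 to 162.1 in MSTN-KO.

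Other genes with a BH3 motif were read from a list of 6, of which 5 were tested. *Bik*, another BH3-only inducer of apoptosis, fell 3.20-fold, from 8.67, 5.83 and 6.97 FPKM in WT to 1.81, 2.45 and 2.45 FPKM in MSTN-KO libraries. The groups were separate, and its log2 fold change was -1.33 (SE 0.17, adjusted p = 0.000209 by limma). The part of the lower differentiation markers in this fall was not tested. *Becn1*, which codes for the autophagy protein Beclin 1 and is bound by BCL2, fell from 43.9 ± 9.20 to 27.0 ± 1.65 FPKM (log2 fold change -0.66, adjusted p = 0.00985 by limma). *Bnip3*, a hypoxia-induced receptor for the removal of mitochondria, rose from 24.3 ± 0.834 to 37.8 ± 5.78 FPKM (0.61, adjusted p = 0.00871 by limma), a call lost when the libraries were scaled to a common sum (0.33). Its relative *Bnip3l*, chosen after its values were seen, was lower in every MSTN-KO library, at 22.2 ± 3.64 against 30.1 ± 3.57 FPKM, and did not pass (adjusted p = 0.0627 by limma). Of the 5 genes, 1 rose and 2 fell, where 8.78% and 8.96% of all genes did so, and the median log2 fold change was -0.43 against 0.00 for all genes.

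**Figure D4:**
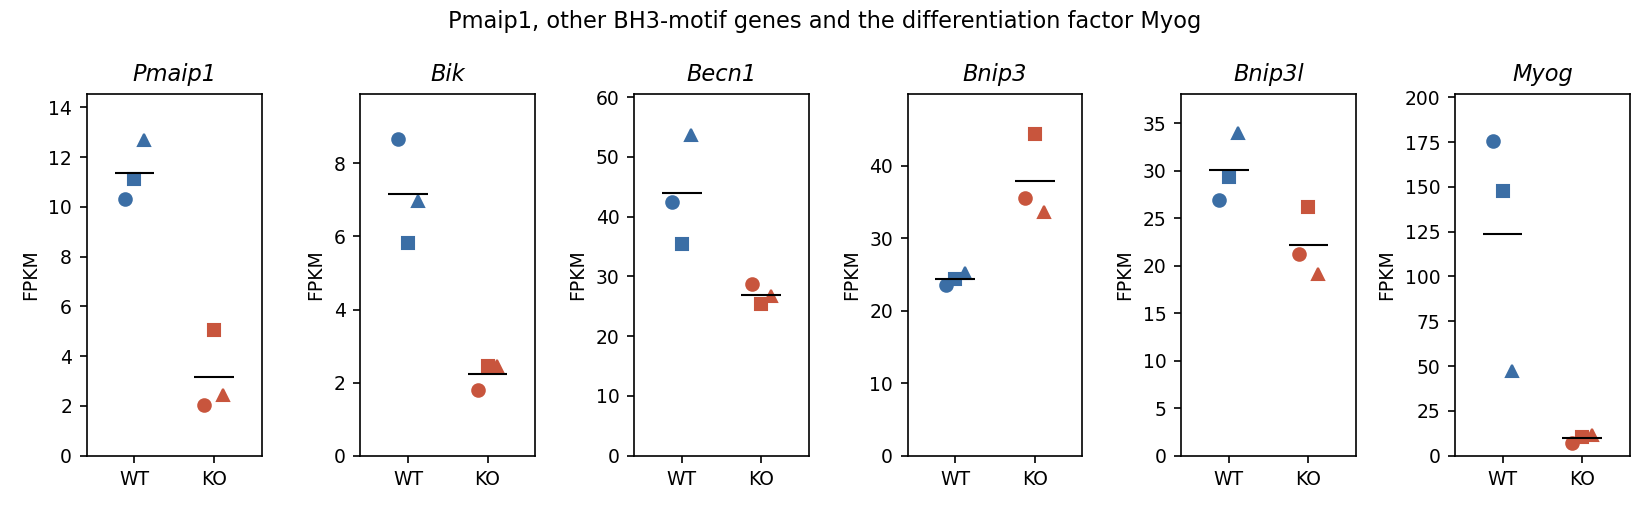
FPKM of *Pmaip1*, 4 other BH3-motif genes and the muscle differentiation factor *Myog* in 3 WT (blue) and 3 MSTN-KO (KO, red) libraries, with group means as lines. Circles, squares and triangles are replicates 1, 2 and 3. *Pmaip1*, *Bik*, *Becn1*, *Bnip3l* and *Myog* are lower in every MSTN-KO library and *Bnip3* is higher in every one. WT replicate 3, at 47.3 FPKM, is the low WT library for *Myog*.

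Of 10 further genes of the BCL2 fold, 3 were tested, and none passed in limma. At an unadjusted p under 0.05 there was 1, where 3531 of all 10837 genes were. That 1 was *Bok*, an effector-like member named here after its values were seen, at 128.0 ± 11.1 FPKM in WT and 102.2 ± 14.1 FPKM in MSTN-KO (log2 fold change -0.33, adjusted p = 0.106 by limma). It exceeded *Bak1* in level in every library of both groups, where *Bak1* was at 86.9 ± 7.92 FPKM in WT and 81.9 ± 8.94 FPKM in MSTN-KO. Downstream of the members, 13 genes of mitochondrial release and the apoptosome were tested in limma, and 1 rose and 0 fell, against the same 8.78% and 8.96% of all genes. At an unadjusted p under 0.05 there were 2, 1 of them lower, against the same 3531 of all genes. The riser was *Htra2*, a protease set free with cytochrome c, which went from 58.1 ± 4.39 to 82.8 ± 10.8 FPKM (0.50, adjusted p = 0.0197 by limma), a call lost in 3 of 16 alternatives, with the common sum (0.22), without MSTN-KO replicate 3 (0.40) and without WT replicate 2 (0.44). *Cycs*, cytochrome c itself, was at 363.2 ± 92.6 and 399.7 ± 52.1 FPKM, and *Apaf1*, the scaffold of the apoptosome, at 6.43 ± 1.44 and 6.08 ± 1.26 FPKM. Neither of them passed, at adjusted p of 0.562 and 0.82 by limma.

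Upstream of the members, 11 of 12 listed transcription factors were tested and none passed in limma. At an unadjusted p under 0.05 there was 1, where 3531 of all 10837 genes were. It was *Foxo1*, named after its values were seen, with an adjusted p of 0.0837 by limma. *Trp53*, which codes for p53, an activator of *Bax*, *Bbc3* and *Pmaip1*, was at 166.8, 144.9 and 164.7 FPKM in WT and 167.2, 172.9 and 199.4 FPKM in MSTN-KO libraries. These values were higher in MSTN-KO by a narrow margin, and the log2 fold change of 0.18 (adjusted p = 0.348 by limma) turned negative when the libraries were scaled to a common sum. *Foxo3*, an activator of *Bcl2l11*, was at 6.53 ± 0.304 and 8.08 ± 0.409 FPKM (0.27, adjusted p = 0.192 by limma). Of 21 tested regulators that act on the member proteins, 1 rose and 2 fell, shares near or below the 8.78% and 8.96% of all genes. *Pim1*, a kinase that phosphorylates BAD, rose from 10.1 ± 0.413 to 18.0 ± 2.49 FPKM (0.77, adjusted p = 0.00278 by limma). *Ywhah*, one of the 14-3-3 proteins that hold phosphorylated BAD in the cytosol, fell from 219.7 ± 22.7 to 141.4 ± 22.9 FPKM (-0.64, adjusted p = 0.00924 by limma), and without MSTN-KO replicate 1 it was at -0.50 (adjusted p = 0.0583 by limma). *Mapk8*, which codes for the stress kinase JNK1, was at 8.17, 7.61 and 9.18 FPKM in WT and 5.80, 5.99 and 2.08 FPKM in MSTN-KO libraries. It fell with an adjusted p of 0.044 by limma (log2 fold change -0.82), but passed in only 6 of 16 alternatives, and without MSTN-KO replicate 3 the value was -0.43. Leaving out any of the 3 WT libraries also ended that call, with adjusted p from 0.0678 to 0.119 by limma.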

How the data were processed

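RNA-seq of 3 WT and 3 MSTN-KO libraries was analysed, grouped by the genotype in the labels. The authors deposited FPKM values per gene, 1 table per library. The submitters' processing notes name Bowtie 0.12.2 and the build mm8 without their roles, and the annotation, gene filter and strand setting are not given in the sources used here. FPKM is relative to each library's own fragments, so abundant genes of a library lower all its other values. Positions are from GENCODE M21 (GRCm38), which gave a symbol for 14445 of 14548 identifiers, and no coordinates were converted.

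The fit of log2(FPKM + 1) took the genes that reached 1 FPKM in any library and used limma 3.58.1 (R 4.3.3, eBayes with trend), with Benjamini-Hochberg adjustment over all 10837 genes. Fold changes on this scale understate those of low genes. Means, ratios and figures were made with Python 3.11.15, matplotlib 3.10.9, pandas 2.3.3, numpy 2.4.6 and scipy 1.17.1. Relative depth, with WT replicate 1 as 1, was read from 453 to 653 genes under 0.1 FPKM. Absolute depth is unknown, so no counting error is given.

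The members and lists were chosen with earlier results of these data known. Named were all 10 members, up to 6 genes with an adjusted p under 0.05 of each related list, *Trp53*, *Foxo3*, *Apaf1*, *Cycs* and *Mstn*. *Foxo1*, *Bok*, *Bnip3l* and the cell type markers named singly lie outside this rule and were chosen after their values were seen. On simulated data of 10697 genes, 199 of 200 genes changed by 2 on the log2 scale were recovered and 13 unchanged genes were called. Low genes were not among those changed, and both groups were given a spread taken from the WT libraries. The recovery therefore does not show how well smaller changes, or changes of low genes, would be found. The alternatives tried changed the scaling (3 others), the pseudocount (0.1), the filter (none, or on the mean) or the trend (none), blocked on the replicate number, corrected for length and GC content (mgcv 1.9.3), or left out each library.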

Additional observations from a re-analysis of the deposited data

How the results depend on the processing

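The call of *Pmaip1* held under all 16 alternatives, and under no alternative other than those named here did another member pass. Leaving out 1 library gave 0 to 1 members higher (*Bax* without MSTN-KO replicate 2) and 1 member lower. A common sum of 1000000 per library, which shifted the median of all genes to -0.26, gave 3 members lower (*Pmaip1*, *Bcl2l1* and *Bak1*). It also gave 350 genes higher and 2367 lower in place of 952 and 971, 510 downregulated DEGs in place of 249, 0 BH3-motif and 0 mitochondrial genes higher, and 1 mitochondrial gene, 1 transcription factor, 1 further BCL2-fold gene and 8 protein regulators lower. The pseudocount of 0.1 gave 254 upregulated and 500 downregulated DEGs. Without single libraries, 423 to 1184 genes were higher and 606 to 1251 lower, the former count being 511 and 583 without MSTN-KO replicates 1 and 3 and 423 and 603 without WT replicates 2 and 3.

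Among the related lists, 1 transcription factor was higher with the length and GC correction and with quantile normalization. Further BCL2-fold genes had 1 lower with the length and GC correction, with percentile 75 scaling and with quantile normalization, and 0 to 1 without single libraries. Mitochondrial genes had 1 lower with quantile normalization, and 0 to 1 higher and 0 to 1 lower without single libraries. Protein regulators had 1 lower with no filter, no trend or a pseudocount of 0.1, and 1 to 3 without single libraries.

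The sign turned for values that had not passed. *Mcl1* was at -0.037 with percentile 75 scaling, -0.019 with quantile normalization and -0.24 with the common sum. With the common sum, *Bad* was at -0.14, *Bid* at -0.10, *Trp53* at -0.11, *Bcl2l11* at -0.24 and *Cycs* at -0.12. *Bcl2l11* was at -0.057 with percentile 75 scaling and between -0.085 and 0.12 without single libraries, and *Bbc3* between -0.22 and 0.080. *Apaf1* was at 0.013 with the length and GC correction, with or without the block, and 0.027 with quantile normalization, and *Cycs* at -0.024 with quantile normalization. Without single libraries *Apaf1* lay between -0.15 and 0.088 and *Cycs* between -0.052 and 0.33. Apart from the shared shift of the common sum, the cause was not tested.

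Same-numbered libraries showed no shared deviation, for their deviations from the group means correlated at -0.02, -0.13 and -0.14 across genes. Whether they were handled as pairs cannot be read from this, and the labels do not say. With the replicate block, 0 members were higher and 1 lower, with *Pmaip1* at an adjusted p of 8.64e-07 by limma, and 939 genes were higher and 1001 lower in all. With the replicate block and the length and GC correction together, 1 further BCL2-fold gene was lower and *Pmaip1* was at -1.55.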
